A study of Mus musculus with 6 samples.

Results

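The genes described here are 36 genes of cholesterol and fatty acid synthesis and their control, a set listed by name, out of 56953 genes in a count table of 6 mouse pancreatic cancer cell lines. All 36 were found by Ensembl identifier, and 35 reached a level of 5 CPM in some line, where CPM is a count scaled for the size of its library. The exception was Mylip. The set holds 18 genes of sterol synthesis from acetyl-CoA to cholesterol, 4 genes of the regulator that switches the pathway on, 2 genes of sterol transport and uptake control, 6 of fatty acid synthesis, 4 desaturases and 2 sterol exporters.

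Cells make cholesterol from acetyl-CoA through mevalonate and squalene, and make fatty acids from the same acetyl-CoA through malonyl-CoA. Both routes are driven by the SREBP transcription factors, products of Srebf1 and Srebf2, which the escort protein Scap carries out of the endoplasmic reticulum when membrane sterol is low and which Insig1 holds back when it is high. Liver X receptors act on the other side: they sense oxidised sterols and turn on exporters such as Abca1 and Abcg1, and Mylip, a ubiquitin ligase that removes lipoprotein receptors from the cell surface.

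The lines are KPC142, KPC180, KPC469, KPC490, KPC630 and KPC850, each a culture of pancreatic ductal adenocarcinoma (PDAC) cells from mice of the strain named KPC, a name widely used for mouse models of this cancer. The study asked how such lines differ in the CD8+ T cell infiltration they induce, but the labels assign no line to a class, so each line was described on its own. Each line had 1 library and no replicate, so differences between lines have no test, and the intervals given cover counting error only. Values of a gene are listed from its lowest line to its highest. Genotype beyond the strain name, culture medium, passage and sex of the mice are not given in the labels.

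Library totals ran from 16471558 to 18701274 counts, and 1 count was worth 0.0532 to 0.0607 CPM. KPC469 was the library least like the others, with a mean Spearman correlation to them of 0.895 across genes against 0.912 to 0.928 for the other lines. Ductal keratins were expressed in every line, but KPC469 had 843.3 CPM of Krt8, where the other lines had 2393 to 4180, and 543.3 of Krt18, where they had 1196 to 2316. Of the 6 ductal markers 3, Krt7, Krt8 and Krt18, were lowest in KPC469. Krt19 was lowest in KPC180 (837.2 CPM) with KPC469 next at 886.6, and the remaining lines had 2062 to 2755. These 4 keratins were at least 2-fold below the median of the other lines in KPC469, and 1 marker, Epcam, was at least 2-fold above it. Sox9 was highest in KPC469 (43.4 CPM, elsewhere 4.55 to 41.6). Epcam was 4.58 CPM in KPC469, within the 0.243 to 10.5 of the other lines. Of the 5 fibroblast markers none reached 5 CPM in any line; their sum was 7.25 CPM in KPC469 and 0.659 to 3.78 elsewhere, and the defining genes Dcn and Lum were at 0 counts in all lines. Summed macrophage, T cell and adipocyte markers stayed at or below 0.959 CPM in every line. Endothelial markers summed to at most 2.66 CPM (KPC630) and hepatocyte markers to at most 3.1 (KPC180). Acinar markers summed to 20.6 CPM in KPC180 and 9.15 in KPC850, all of it Cela1. In KPC469 the low values of the set described below came with low Krt7, Krt8, Krt18 and Krt19. KPC630, second lowest for most sterol synthesis genes, had the highest Krt7 (2572 CPM) and Krt19 (2755 CPM). Its Krt8 was 3202 CPM and its Krt18 2126. The part of either keratins or fibroblast markers in the low values of the set was not tested.

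Sterol synthesis genes were lowest in KPC469 and, mostly, second lowest in KPC630. All 18 had their lowest value in KPC469, where 19.7% of the 11323 genes that reached 5 CPM in some line had theirs. There 16 of the 18 were at least 2-fold below the median of the other 5 lines, against 8.33% of those genes, the exceptions being Pmvk and Ebp. In 15 of the 18 KPC630 held the second lowest value, an order that 3.25% of those genes showed. The median difference of the 18 genes from the other lines was -1.81 on the log2 scale in KPC469 and -0.80 in KPC630, against -0.02 in KPC142, 0.23 in KPC180, 0.42 in KPC490 and 0.48 in KPC850. Over the 11323 genes the same median was 0.01 in KPC469 and 0.01 in KPC630. The summed level of the 18 genes was 769.3 CPM in KPC469 and 1399 in KPC630, and between 2357 and 3210 in the other 4 lines. In a bulk library a lower level in all cells and fewer cells at a high level cannot be told apart.

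**Figure D1:**
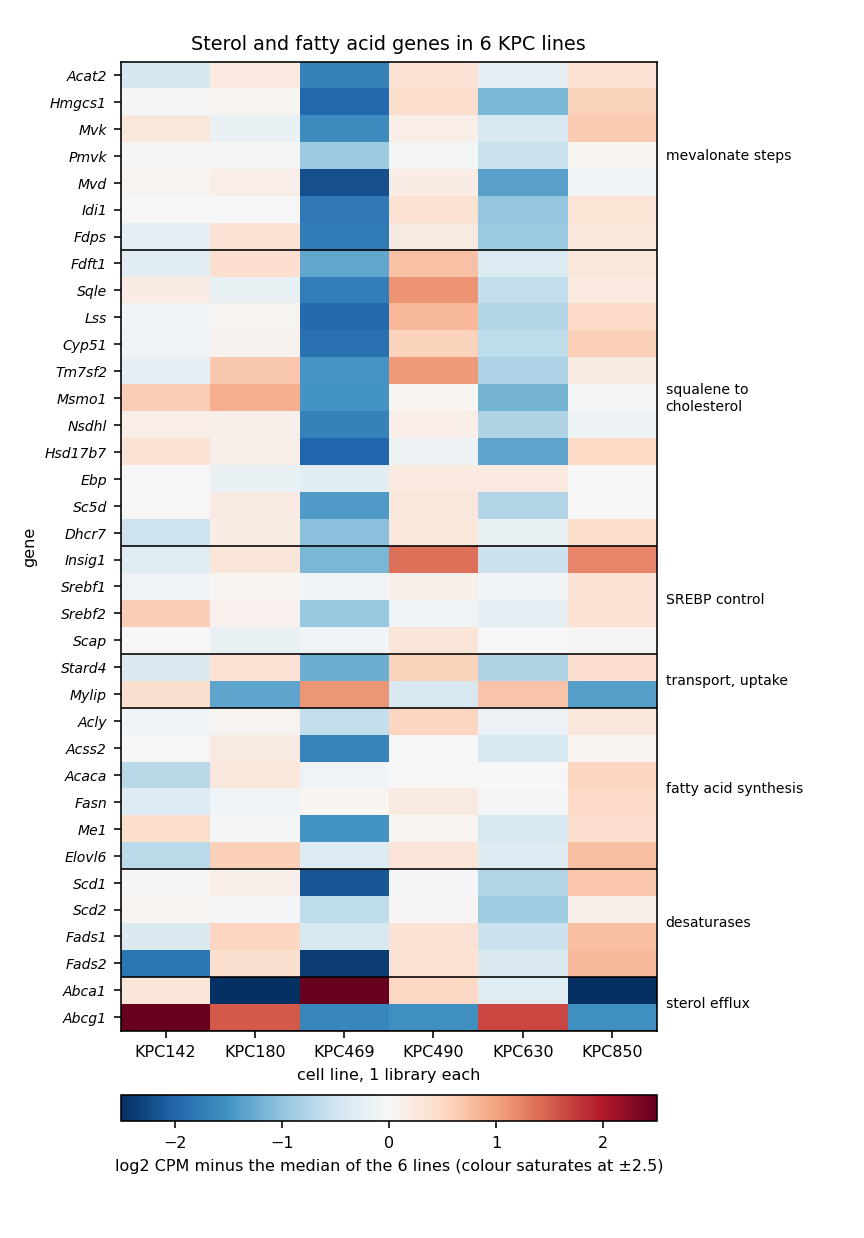
Heat map of the 36 genes (rows, grouped by role) in the 6 lines (columns, 1 library each); colour is log2 CPM, with a floor of 3 counts, minus the gene's median over the 6 lines. Apart from Ebp, which is near white, the KPC469 column is blue for the sterol synthesis genes. It is also blue for Srebf2, Scd1, Fads2 and Abcg1, near white for Srebf1, Scap and Fasn, and red for Abca1 and Mylip.

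Over the whole set, 26 of the 36 members were lowest in KPC469 (19.7% of genes) and 24 were at least 2-fold lower there (8.33%). In the same line 2 members, Abca1 and Mylip, were at least 2-fold above the median of the other lines, against 7.73% of genes. Mylip did not reach the 5 CPM that those genes did, and of the 35 members that did, 1 was this much higher. In KPC630 7 members were at least 2-fold lower (3.94% of genes), namely Hmgcs1, Mvd, Fdps, Tm7sf2, Msmo1, Hsd17b7 and Stard4. All 7 were also at least 2-fold lower in KPC469, and they were 7 of 85 genes that met this limit in both lines (0.751%). The order with KPC469 lowest and KPC630 second lowest held for 22 members (3.25% of genes). At the upper end KPC850 held the highest value of 15 members (14.8% of genes) and KPC490 that of 11 (15.3%). In KPC490 4 members were at least 2-fold higher (5.18% of genes), Insig1, Sqle, Tm7sf2 and Fdft1, and in KPC850 another 4 (5.55%), Insig1, Fads2, Fads1 and Elovl6. Those of KPC490 are genes of sterol synthesis and its control, and those of KPC850 include both front-end desaturases.

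**Figure D2:**
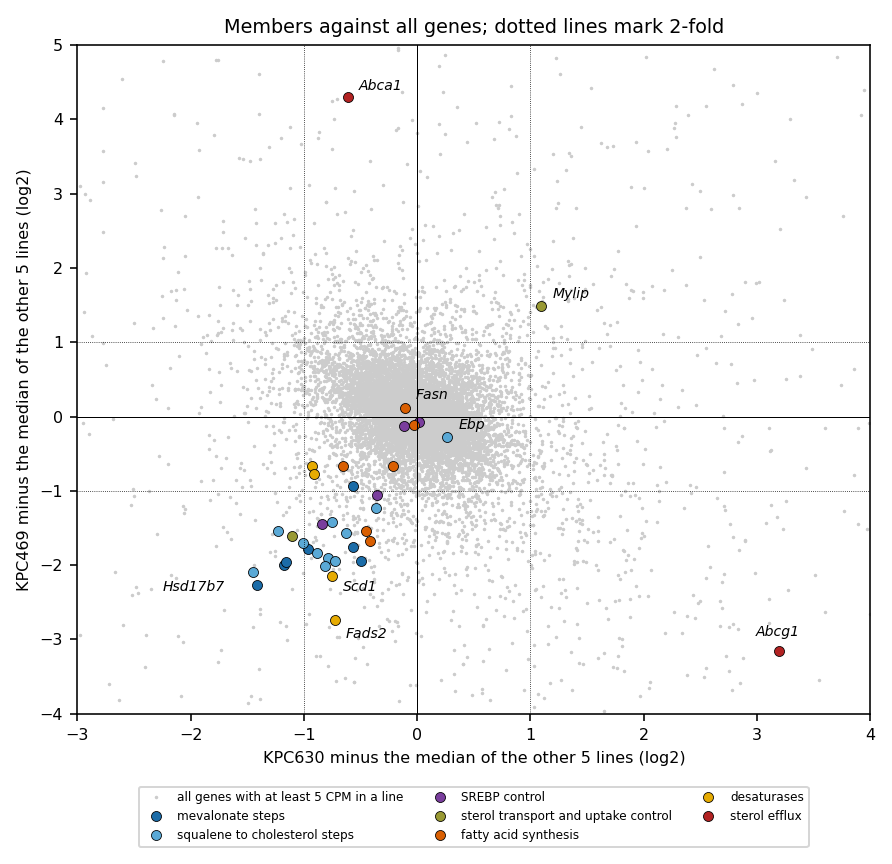
Difference of KPC630 (horizontal axis) and of KPC469 (vertical axis) from the median of the other 5 lines, in log2 units; grey points are genes that reached 5 CPM in some line, coloured points the members by role, and genes beyond the axes are not drawn. Most members lie in the lower left, while Fasn, Srebf1, Scap, Acaca and Ebp lie near the centre and Abca1, Abcg1 and Mylip lie apart.

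The first steps make mevalonate and the isoprenoid units. Hmgcs1 (ENSMUSG00000093930, chromosome 13), which condenses acetoacetyl-CoA and acetyl-CoA into HMG-CoA, was 86.5 CPM in KPC469, 153.3 in KPC630, 326.3 in KPC142, 346.3 in KPC180, 455.8 in KPC490 and 501.4 in KPC850. Its highest line was 5.79-fold above its lowest (95% interval 5.49 to 6.12). KPC469 and KPC630 stood below the other 4 lines, which ran from 326.3 to 501.4 CPM. Mvd, whose product decarboxylates mevalonate diphosphate, was 20.0 CPM in KPC469, 36.1 in KPC630, 87.8 in KPC850, 96.4 in KPC142, 103.4 in KPC180 and 105.3 in KPC490, a 5.27-fold range. Here too the 4 other lines lay close together, between 87.8 and 105.3 CPM. Mvk, the mevalonate kinase gene, was 15.1 CPM in KPC469, 34.4 in KPC630, 40.3 in KPC180, 50.8 in KPC490, 54.9 in KPC142 and 70.9 in KPC850. Idi1, which interconverts the isoprenoid building blocks, was 24.8 CPM in KPC469, 43.7 in KPC630, 85.3 in KPC142, 85.4 in KPC180, 108.2 in KPC850 and 111.8 in KPC490. Both genes repeated the order of KPC469 lowest and KPC630 next.

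Fdps, which makes farnesyl diphosphate, was 80.7 CPM in KPC469, 141.0 in KPC630, 231.4 in KPC142, 314.7 in KPC490, 325.1 in KPC850 and 345.9 in KPC180. Acat2, a cytosolic thiolase that makes acetoacetyl-CoA, was 32.9 CPM in KPC469, 79.5 in KPC142, 89.8 in KPC630, 126.6 in KPC180, 136.1 in KPC490 and 136.8 in KPC850. For Acat2 KPC142, not KPC630, was second lowest. Fdps shares 1124 exon bases, 26.7% of its exon length, with the gene model Gm43738 on the same strand, which was not analysed here, so its values are uncertain. Acat2 shares 1477 bases of 97.7% identity with Acat3, which was given at most 0.981 CPM, and 445 bases with Tcp1, so how reads were split between them is uncertain. Copies of Idi1, Fdft1, Me1 and Elovl6 elsewhere in the genome were given at most 0.641 CPM. Pmvk, the phosphomevalonate kinase gene, had the narrowest range of the group at 1.97-fold, from 26.3 CPM in KPC469 and 33.8 in KPC630 to between 48.7 and 51.6 in the other 4 lines. Leaving Acat2 aside, the 6 other genes of this group had KPC469 lowest and KPC630 second lowest.

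From squalene to cholesterol 11 genes were listed, and 7 of them ranged at least 4-fold (18.7% of the 11323 genes). Lss (ENSMUSG00000033105, chromosome 10), which closes squalene epoxide into lanosterol, was 33.5 CPM in KPC469, 76.7 in KPC630, 121.7 in KPC142, 135.0 in KPC180, 178.7 in KPC850 and 226.4 in KPC490. Sqle, the squalene epoxidase gene, was 71.9 CPM in KPC469, 155.4 in KPC630, 209.9 in KPC180, 268.1 in KPC142, 281.3 in KPC850 and 519.4 in KPC490. Both were highest in KPC490, and Sqle there was 1.85-fold above its next line, KPC850. Cyp51, which removes a methyl group from lanosterol, was 58.6 CPM in KPC469, 136.8 in KPC630, 199.8 in KPC142, 226.4 in KPC180, 316.1 in KPC490 and 321.3 in KPC850. Fdft1, the squalene synthase gene, was 48.5 CPM in KPC469, 93.5 in KPC630, 98.3 in KPC142, 144.3 in KPC850, 159.3 in KPC180 and 198.5 in KPC490. For Fdft1 KPC630 and KPC142 differed by only 1.05-fold, so KPC630 did not stand apart. Fdft1 exons overlap those of Ctsb on the opposite strand over 774 bases, 18.3% of its exon length.

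Msmo1, an oxidase that takes methyl groups off the sterol ring, was 72.6 CPM in KPC469, 90.2 in KPC630, 197.6 in KPC850, 211.2 in KPC490, 311.6 in KPC142 and 385.4 in KPC180. It departed from the other sterol synthesis genes in having KPC180 highest with KPC142 next, although Fdps was also highest in KPC180 and Nsdhl in KPC142. Its range was still 4.27-fold when KPC469 was left out. Msmo1 and Mvd lie on chromosome 8, whose median gene was higher in KPC142 (0.22 on the log2 scale), KPC180 (0.34) and KPC469 (0.19) than in KPC490 (-0.22), KPC630 (-0.22) and KPC850 (-0.24). With that median subtracted Msmo1 was still highest in KPC180 and lowest in KPC469, with a 4.80-fold range. Hsd17b7, a sterol ketone reductase, was 15.0 CPM in KPC469, 23.6 in KPC630, 54.4 in KPC490, 64.4 in KPC180, 75.9 in KPC142 and 83.5 in KPC850. Tm7sf2, a sterol reductase, was 9.32 CPM in KPC469, 15.1 in KPC630, 21.9 in KPC142, 30.3 in KPC850, 41.1 in KPC180 and 53.8 in KPC490. Hsd17b7 thus showed KPC469 and KPC630 well below the other 4 lines, which began at 54.4 CPM. Tm7sf2 shares 532 exon bases on the same strand with Vps51, a gene of median 53.0 CPM, so its values are uncertain.

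The remaining 4 genes of the route had narrower ranges. Nsdhl, a dehydrogenase that works with Msmo1, ranged 3.66-fold, from 20.2 CPM in KPC469 and 39.0 in KPC630 to between 59.6 and 73.9 in the other lines. Sc5d, a sterol desaturase, ranged 3.21-fold, from 49.5 CPM in KPC469 and 79.0 in KPC630 to between 129.6 and 158.8 elsewhere. Dhcr7, which catalyses the last reduction to cholesterol, ranged 2.79-fold, with KPC142 (37.4 CPM) second lowest after KPC469 (25.8). Ebp, the sterol isomerase gene, ranged only 1.42-fold (95% interval 1.33 to 1.52), from 78.1 CPM in KPC469 to 110.8 in KPC630. Ebp was the single sterol synthesis gene highest in KPC630. Across all 18 genes KPC630 was 1.24-fold to 2.73-fold above KPC469, with a median of 1.79-fold.

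The promoter sequences of the members, 250 bases before to 50 after each RefSeq start site on the build GRCm38.p6, were searched on both strands for letters tied to this control. RefSeq promoter entries matched 28 of the 36 members; Fdps, Fdft1, Sqle, Stard4, Scd1, Scd2, Fads1 and Abcg1 had no match. The searched letters were the sterol element TCACNCCAC bound by SREBP, its core CACNCCAC, the palindrome TCACGTGA, the NF-Y box CCAAT and the Sp1 box GGGCGG; every sterol element also contains the core. The NF-Y box stood in 22 of 28 members (78.57%), against 41.06% of 27025 genes in the same windows, and in 9 of 9 genes of the squalene to cholesterol route. The Sp1 box stood in 24 of 28 members (85.71%) against 38.2% of genes. The sterol element stood in 1 member, Hmgcs1, against 1.436% of genes, the core in Acat2, Hmgcs1 and Insig1 against 7.123%, and the palindrome in none against 1.125%. The 27025 genes were counted whether or not they reached 5 CPM in these lines, which every member but Mylip did. The shares are thus not matched for expression, and its part in the differences was not tested. The matches are of letters and are not binding sites.

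3 of the promoters printed here belong to genes at least 2-fold lower in KPC469 (Hmgcs1, Insig1 and Lss) and the other 2 to genes near level over the lines (Ebp and Fasn), so that the letters can be read beside unlike patterns. Capitals mark CCAAT on either strand and the sterol element or its core on either strand. The windows are chr13:119690101-119690400 on the plus strand for Hmgcs1, chr5:28071162-28071461 on the plus strand for Insig1, chr10:76531355-76531654 on the plus strand for Lss, chrX:8193463-8193762 on the minus strand for Ebp and chr11:120824498-120824797 on the minus strand for Fasn. Each reads 5′ to 3′ along the gene.
Hmgcs1: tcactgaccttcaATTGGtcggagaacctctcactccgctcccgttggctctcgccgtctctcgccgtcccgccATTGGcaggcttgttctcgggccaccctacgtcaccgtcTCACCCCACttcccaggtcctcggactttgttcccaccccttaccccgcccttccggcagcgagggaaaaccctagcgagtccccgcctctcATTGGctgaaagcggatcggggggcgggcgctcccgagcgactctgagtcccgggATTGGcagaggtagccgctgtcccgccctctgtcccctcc
Insig1: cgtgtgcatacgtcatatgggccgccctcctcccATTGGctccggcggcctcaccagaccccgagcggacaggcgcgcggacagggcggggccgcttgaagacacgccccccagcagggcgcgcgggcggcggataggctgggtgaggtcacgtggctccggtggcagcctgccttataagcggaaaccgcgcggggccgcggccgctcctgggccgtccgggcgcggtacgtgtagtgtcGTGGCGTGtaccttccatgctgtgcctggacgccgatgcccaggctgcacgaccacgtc
Lss: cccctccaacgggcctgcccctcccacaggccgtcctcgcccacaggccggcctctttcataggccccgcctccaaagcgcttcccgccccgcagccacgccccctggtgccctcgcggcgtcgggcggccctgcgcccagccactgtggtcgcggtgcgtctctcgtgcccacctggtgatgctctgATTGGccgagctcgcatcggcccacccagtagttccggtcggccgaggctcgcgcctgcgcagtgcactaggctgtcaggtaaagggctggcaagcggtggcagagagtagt
Ebp: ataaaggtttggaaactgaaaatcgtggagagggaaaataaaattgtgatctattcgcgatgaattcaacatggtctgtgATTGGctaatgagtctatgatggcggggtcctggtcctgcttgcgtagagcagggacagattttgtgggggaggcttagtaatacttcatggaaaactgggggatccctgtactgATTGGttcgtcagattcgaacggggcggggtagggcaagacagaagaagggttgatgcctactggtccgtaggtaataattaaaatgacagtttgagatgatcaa
Fasn: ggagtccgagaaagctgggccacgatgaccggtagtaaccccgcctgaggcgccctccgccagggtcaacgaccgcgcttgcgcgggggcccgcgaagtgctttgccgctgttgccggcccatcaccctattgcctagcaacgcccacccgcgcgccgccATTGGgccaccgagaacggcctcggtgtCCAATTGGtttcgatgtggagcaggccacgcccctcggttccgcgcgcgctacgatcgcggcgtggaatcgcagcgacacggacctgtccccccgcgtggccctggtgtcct

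All 5 of these windows hold CCAAT, including those of Ebp and Fasn. They were picked for printing, so they cannot show how the box relates to the levels in KPC469. Of the members without the box, Acat2 and Fads2 were at least 2-fold lower in KPC469, and Scap, Acaca, Elovl6 and Abca1 were not. A relation of the box to the levels was not tested. Hmgcs1 holds 4 such boxes and 1 sterol element centred 133 bases before its start. Insig1 holds 1 box and 1 core, centred 5.5 bases before its start.

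**Figure D3:**
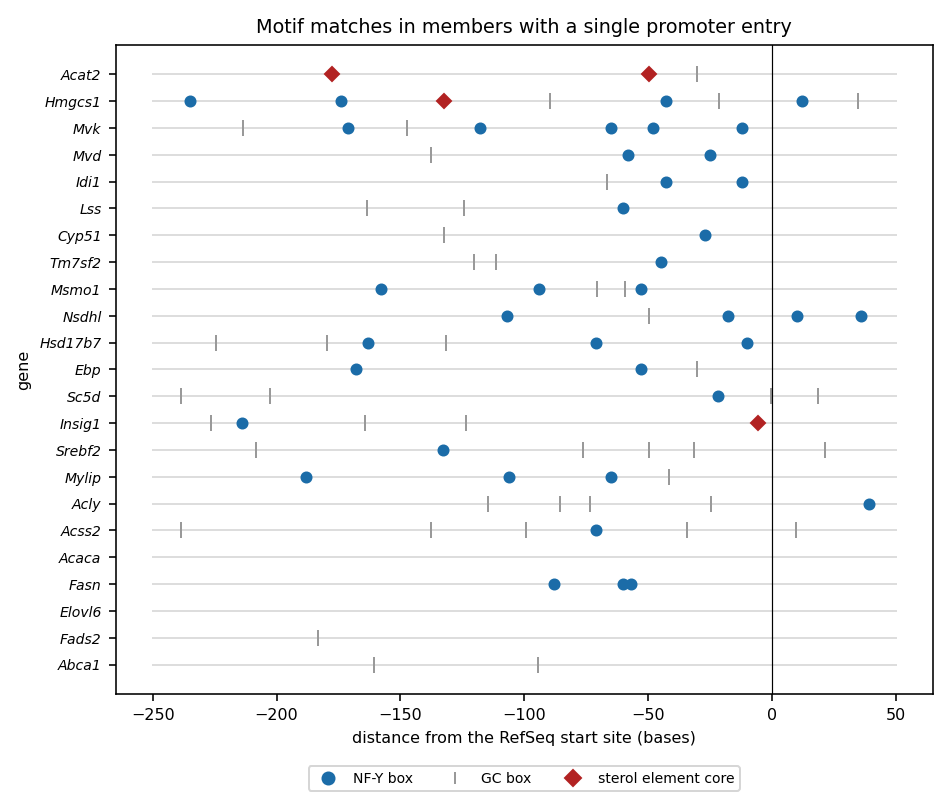
Positions of the NF-Y box, the GC box (the Sp1 letters) and the sterol element core in members with a single RefSeq promoter entry, as distance in bases from the start site (vertical line), 1 row per gene. The NF-Y boxes of the sterol synthesis genes cluster in the stretch just before the start, and Acat2, Acaca, Elovl6, Fads2 and Abca1 have none.

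The SREBP regulators did not share 1 pattern. Insig1 (ENSMUSG00000045294, chromosome 5), itself a target of SREBP, was 63.8 CPM in KPC469, 97.0 in KPC630, 114.7 in KPC142, 173.9 in KPC180, 330.7 in KPC850 and 365.3 in KPC490. It ranged 5.73-fold (95% interval 5.38 to 6.10), with KPC490 and KPC850 far above the other 4 lines. Srebf2, whose product acts mainly on sterol synthesis, was 245.1 CPM in KPC469, 399.5 in KPC630, 441.7 in KPC490, 510.0 in KPC180, 607.9 in KPC850 and 722.9 in KPC142. It was lowest in KPC469, 2.08-fold below the median of the other lines, and highest in KPC142. Srebf1, whose product acts more on fatty acid synthesis, was 221.6 CPM in KPC142, 226.2 in KPC469, 226.9 in KPC630, 246.2 in KPC180, 258.3 in KPC490 and 305.6 in KPC850, a range of 1.38-fold. Scap was 77.0 CPM in KPC180, 83.8 in KPC469, 87.1 in KPC142, 88.3 in KPC630, 89.3 in KPC850 and 108.0 in KPC490, a range of 1.40-fold. Srebf1 and Scap in KPC469 thus lay within 1.09-fold of the median of the other lines.

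Per kilobase of exon, the ratio of Srebf1 to Srebf2 was 1.18 in KPC469 (95% interval 1.13 to 1.23), and between 0.391 in KPC142 and 0.746 in KPC490 in the other 5 lines. KPC469 was the only one of the 6 lines in which the Srebf1 level per kilobase exceeded that of Srebf2. Before division by length Srebf1 was the lower there too (226.2 against 245.1 CPM). The lengths cover all annotated exons, which adds an uncertainty that the interval leaves out. The ratio of Insig1 to Scap per kilobase was 1.83 in KPC469, 2.64 in KPC630 and 3.17 in KPC142, and reached 8.14 in KPC490 and 8.91 in KPC850.

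Of the 9 other genes of SREBP processing and turnover, all expressed, none ranged 4-fold (18.7% of genes) and none was lowest in KPC469 (19.7%). Mbtps1, the first protease that cuts SREBP, was highest in KPC469 at 341.0 CPM against 144.4 to 282.3 elsewhere. Erlin1, which takes part in the breakdown of the endoplasmic reticulum proteins of this pathway, was at least 2-fold higher in KPC469 at 113.2 CPM, against 44.6 to 85.4. Insig2 lay between 33.7 CPM (KPC180) and 55.3 CPM (KPC850).

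Stard4, a sterol carrier of the cytosol, was 80.5 CPM in KPC469, 113.6 in KPC630, 149.1 in KPC142, 244.4 in KPC180, 253.7 in KPC850 and 284.5 in KPC490. It followed the order of the synthesis genes, with KPC469 and KPC630 lowest. Mylip was near the floor throughout, at 0 CPM in KPC850, 0.0607 in KPC180, 0.348 in KPC490, 0.599 in KPC142, 0.745 in KPC630 and 0.981 in KPC469. Its highest level, in KPC469, was at least 5.61-fold above the floor of 3 counts in KPC850.

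Among 12 genes of sterol storage and trafficking that are not members, 2 were lowest in KPC469 (19.7% of genes). None was 2-fold lower there (8.33%). Lrp1, a large lipoprotein receptor, stood out in KPC850 with 262.6 CPM, where the 5 remaining lines had 24.0 to 72.3. Vldlr, another lipoprotein receptor, was highest in KPC469 at 181.5 CPM, followed by KPC142 at 102.1, with the other 4 lines at 22.8 to 41.9. Apoe, the apolipoprotein gene, was also highest in KPC469, at 10.4 CPM against 1.34 to 8.19. The last of the 4 with a range over 4-fold, Cav1 of the caveolar coat, was lowest in KPC180 at 52.3 CPM. Of 12 genes of the isoprenoid branch, which leaves the sterol route after farnesyl diphosphate, none ranged 4-fold (18.7% of genes). In KPC469 2 were lowest (19.7%) and 1, Pdss2 of ubiquinone synthesis, was at least 2-fold lower (8.33%). These KPC469 counts were near the shares over all genes, unlike those of the sterol genes.

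Fatty acid synthesis genes were less uniform, and none of the 6 ranged 4-fold (18.7% of genes). With so few genes that count is near the share over all genes. Their median difference in KPC469 was -0.66 on the log2 scale and in KPC630 -0.32. Fasn (ENSMUSG00000025153, chromosome 11), the fatty acid synthase gene, was 539.1 CPM in KPC142, 620.0 in KPC180, 647.0 in KPC630, 698.8 in KPC469, 788.6 in KPC490 and 933.5 in KPC850, a range of 1.73-fold. KPC469 was the third highest line for Fasn, 1 of 3 members above the median of the other lines there. Acaca, which makes malonyl-CoA, was 70.4 CPM in KPC142, 106.2 in KPC469, 112.5 in KPC630, 115.1 in KPC490, 136.4 in KPC180 and 164.1 in KPC850. Elovl6, which lengthens palmitate, was 75.0 CPM in KPC142, 94.8 in KPC469, 95.5 in KPC630, 150.0 in KPC490, 180.1 in KPC180 and 202.8 in KPC850. Fasn, Acaca and Elovl6 were all lowest in KPC142 and highest in KPC850. Fasn and Acaca lie on chromosome 11, whose median gene was -0.25 on the log2 scale in KPC142. With that median subtracted Fasn was lowest in KPC630, at 595.1 CPM against 639.2 in KPC142. Acaca was then still lowest in KPC142, with a 1.84-fold range. A pseudogene copy, Gm5182, is 99.2% identical to Acaca over 6118 bases and was given up to 5.04 CPM.

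Acss2, Me1 and Acly, members that supply acetyl-CoA or NADPH, were lowest in KPC469. Acss2, which makes acetyl-CoA from acetate, was 6.21 CPM in KPC469, 14.9 in KPC630, 19.5 in KPC142, 19.9 in KPC490, 20.6 in KPC850 and 23.1 in KPC180. Me1, the cytosolic malic enzyme gene and a source of NADPH, was 139.3 CPM in KPC469, 297.4 in KPC630, 383.8 in KPC180, 405.9 in KPC490, 527.5 in KPC850 and 533.5 in KPC142. Both were at least 2-fold lower in KPC469 and had KPC630 second lowest. Acly, which makes acetyl-CoA from citrate, ranged 2.21-fold, from 300.8 CPM in KPC469 and 411.0 in KPC630 to 663.6 in KPC490. Within each library the level of Hmgcs1 per kilobase was 1.44 times that of Fasn in KPC142, 1.33 in KPC180, 1.38 in KPC490 and 1.28 in KPC850, but 0.295 in KPC469 (95% interval 0.280 to 0.311) and 0.565 in KPC630 (0.542 to 0.588). The summed level of the 6 genes was 1346 CPM in KPC469 and 1578 in KPC630, against 1673 to 2393 in the other lines.

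**Figure D4:**
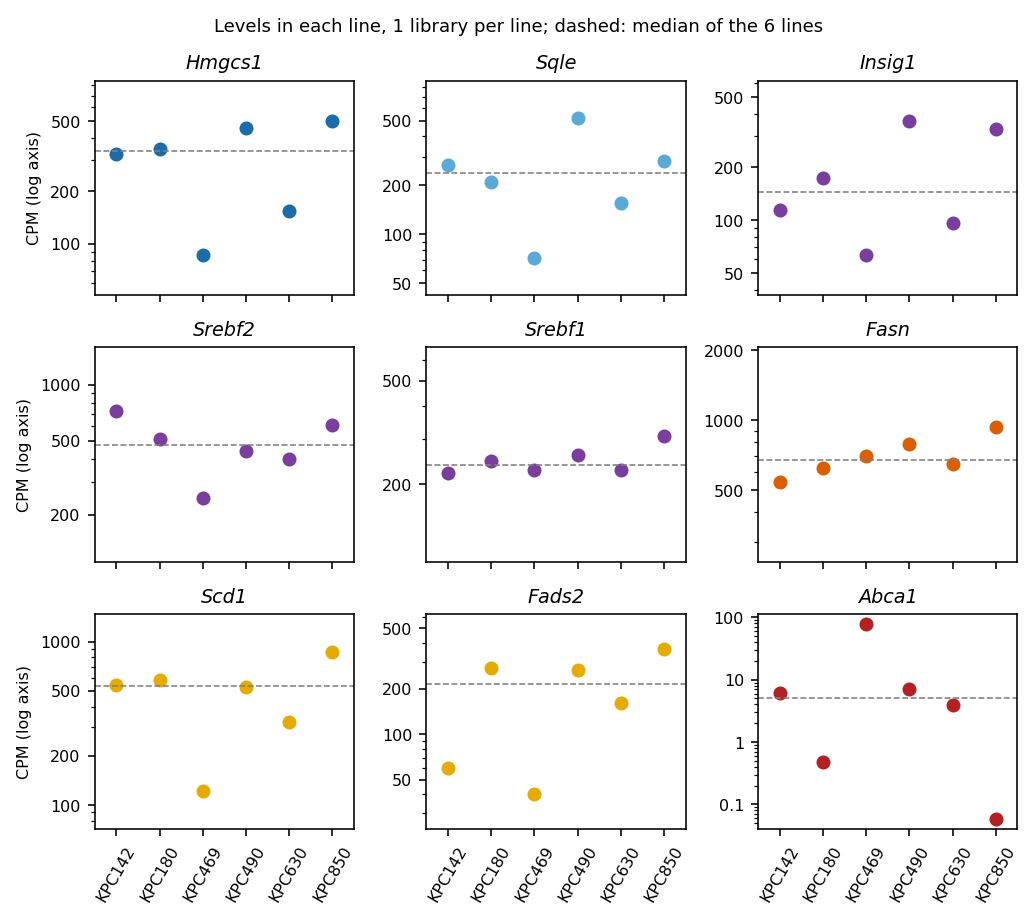
CPM (log axis, 1 scale per panel) of 9 genes in the 6 lines, 1 library each, with the median of the 6 lines dashed. Hmgcs1, Sqle, Insig1, Srebf2, Scd1 and Fads2 are lowest in KPC469, Srebf1 and Fasn are nearly level, and Abca1 is highest in KPC469 at 78.6 CPM.

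The other lipogenic genes were 21, of which 18 were expressed. Of these none ranged 4-fold (18.7% of genes), 8 were lowest in KPC469 (19.7%), and 2 were at least 2-fold lower there (8.33%): Aacs, which feeds ketone bodies into lipid synthesis, at 59.3 CPM against 108.2 to 213.3, and Lpin1, a phosphatidate phosphatase, at 10.4 against 11.3 to 40.0. G6pdx, which makes NADPH in the pentose phosphate route, was at least 2-fold higher in KPC469 at 266.2 CPM, with KPC630 next at 236.5 and the other lines at 86.2 to 145.8. Slc25a1, the citrate carrier, had 90.3 CPM in KPC469, its lowest line, and 295.0 in KPC850. Of 9 expressed genes of fatty acid oxidation, 1, Hadha, was lowest in KPC469 (19.7% of genes). None differed 2-fold there (8.33% of genes lower and 7.73% higher), and these counts are near the shares over all genes.

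Desaturases joined the low values of KPC469 unevenly. Scd1 (ENSMUSG00000037071, chromosome 19), which makes monounsaturated fatty acids, was 121.5 CPM in KPC469, 320.8 in KPC630, 524.7 in KPC490, 540.4 in KPC142, 580.3 in KPC180 and 866.4 in KPC850, a 7.13-fold range (95% interval 6.82 to 7.46). Its close relative Scd2 was 1627 CPM in KPC630, 1947 in KPC469, 2975 in KPC180, 3089 in KPC490, 3192 in KPC142 and 3345 in KPC850. Scd2 was therefore lowest in KPC630, with KPC469 next, and it had the highest median level per kilobase of all 36 members, 554.9 CPM per kilobase against 108.9 for Scd1. The ratio of Scd1 to Scd2 per kilobase was 0.0697 in KPC469, against 0.189 to 0.220 in KPC142, KPC490, KPC180 and KPC630 and 0.289 in KPC850. The 2 transcripts are 95.5% identical over 623 bases, so some reads may have been shared.

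Fads2, which starts the synthesis of long polyunsaturated fatty acids, was 40.2 CPM in KPC469, 59.6 in KPC142, 161.2 in KPC630, 267.2 in KPC490, 273.9 in KPC180 and 366.2 in KPC850. Its 9.11-fold range (95% interval 8.44 to 9.84) was the widest of the members above 5 CPM other than the exporters. For Fads2 KPC142 stood low beside KPC469, and without KPC469 the range was still 6.14-fold. Fads1, which acts later on the same fatty acids, ranged 2.45-fold, with KPC630 (82.3 CPM), KPC469 (90.6) and KPC142 (92.5) low and KPC850 highest at 201.4. The ratio of Fads2 to Fads1 per kilobase was 0.648 in KPC469 and 0.941 in KPC142, against 2.31 in KPC180, 2.52 in KPC490, 2.86 in KPC630 and 2.66 in KPC850.

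**Figure D5:**
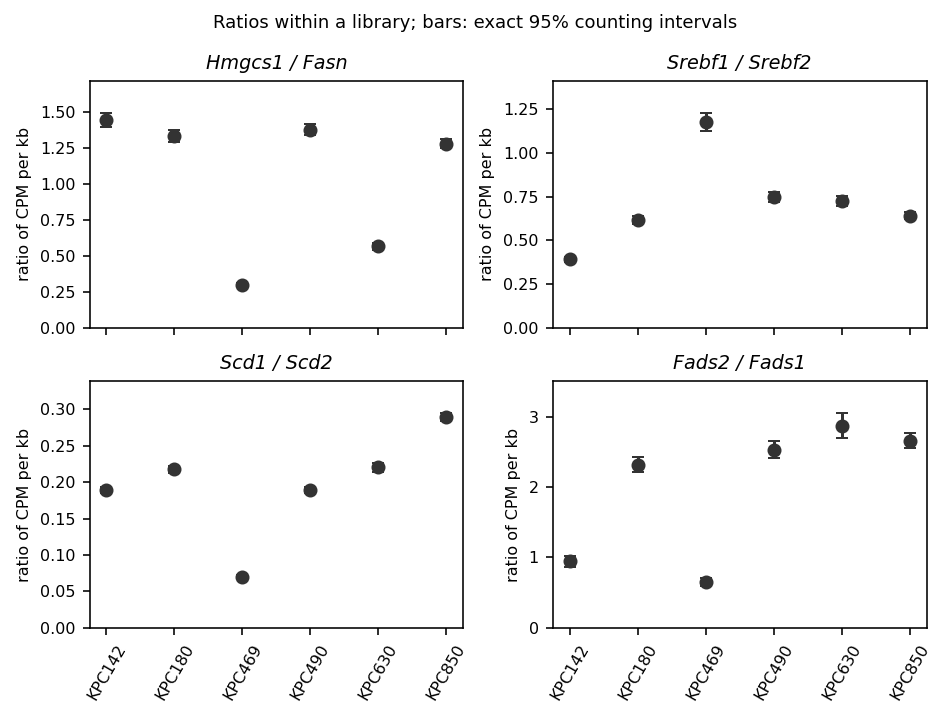
Ratios of levels per kilobase of exon within each library for 4 pairs of members in the 6 lines; bars are exact 95% intervals for counting error, and each axis starts at 0. KPC469 is lowest for Hmgcs1 to Fasn (0.295), Scd1 to Scd2 (0.0697) and Fads2 to Fads1 (0.648) and highest for Srebf1 to Srebf2 (1.18).

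The exporters varied most, each in its own way. Abca1 (ENSMUSG00000015243, chromosome 4), which loads cholesterol onto apolipoproteins, was 0.0583 CPM in KPC850, 0.486 in KPC180, 3.99 in KPC630, 6.11 in KPC142, 7.03 in KPC490 and 78.6 in KPC469. The KPC850 value is 1 count. KPC469 was 11.2-fold above its next line, KPC490, and the ratio of KPC469 to that 1 count, taken without the floor, was 1349 with a counting interval of 241.7 to 53310. Abcg1, which exports cholesterol to lipoprotein particles, was 0 CPM in KPC469, 0 in KPC850, 0.116 in KPC490, 1.46 in KPC180, 1.60 in KPC630 and 7.01 in KPC142. KPC142 was at least 42.9-fold above the floor of 3 counts in KPC469. Abca1 was thus highest, and Abcg1 at 0 counts, in the same line.

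Of the liver X receptor genes, Nr1h2 ranged 1.36-fold, from 46.9 CPM in KPC142 to 63.6 in KPC490, and Nr1h3 ranged 2.23-fold, from 7.83 in KPC630 to 17.5 in KPC469. Among 7 receptors, partners and other targets, 1 gene ranged 4-fold (18.7% of genes) and 1 was lowest in KPC469 (19.7%). The wide one was Smpdl3a, a target of these receptors, from 0.719 CPM in KPC142 to 11.4 in KPC850, and it was at least 2-fold lower in KPC469 at 1.14. Lpcat3, a phospholipid remodelling enzyme and target, was lowest in KPC469 at 74.5 CPM against 108.9 to 170.6. Abca1 shared its highest line, KPC469, with Apoe, which these receptors also turn on, and with Mylip near the floor, but not with Abcg1, Smpdl3a, Lpcat3 or Arl4c.

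Over all 36 members 19 ranged at least 4-fold between lines, 18 of them among the 35 above 5 CPM, against 18.7% of the 11323 genes. Without KPC469 this count was 5 (Msmo1, Fads2, Mylip, Abca1 and Abcg1), against 14.925% of genes. A range of at least 2-fold was reached by 31 members (48.4% of genes). The 5 members under 2-fold were Pmvk, Ebp, Srebf1, Scap and Fasn.

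In all, 10 pairs of members were compared by correlation of log2 CPM over the 6 lines, with two-sided exact permutation tests over 720 pairings and Benjamini-Hochberg adjustment over the 10 pairs. None passed an adjusted p of 0.05 by either measure, and 5 had an unadjusted Pearson p below it. Insig1 with Hmgcs1 gave Pearson r = 0.905, with an exact permutation p of 0.0139 that adjustment took to 0.0861. Spearman rho was 0.943, with an exact permutation p of 0.0167 and 0.167 once adjusted. Without KPC490 and KPC850, the 2 lines farthest from the median of Insig1, r was 0.922. Srebf2 with Hmgcs1 gave r = 0.817, with an exact permutation p of 0.0431 before and 0.0861 after adjustment, and rho = 0.60, with 0.242 before and 0.345 after. Its r was 0.471 without KPC469 alone and 0.731 without both KPC142 and KPC469. Srebf1 with Fasn gave r = 0.870, with an exact permutation p of 0.0278 before and 0.0861 after adjustment, and rho = 0.771, with 0.103 before and 0.206 after. This r was 0.171 without both KPC490 and KPC850, 0.869 without KPC490 alone, 0.658 without KPC850 alone and 0.931 without KPC469. The relation thus no longer held without the pair of lines, and KPC850 was the single line whose absence lowered it most. Srebf1 and Fasn both lie on chromosome 11. With chromosome medians subtracted their r was 0.678 (adjusted exact permutation p = 0.174).

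Hmgcs1 with Fasn, a gene each of the sterol and fatty acid routes, gave r = 0.311, with an exact permutation p of 0.5375 before and 0.597 after adjustment. Its rho was 0.486, with 0.356 before and 0.444 after. Without KPC469 and KPC630 r was 0.988 over the 4 remaining lines. Hmgcs1 with Abca1 gave r = -0.740, with an exact permutation p of 0.0958 before and 0.137 after adjustment, and rho = -0.60, with 0.242 before and 0.345 after. Without KPC469 and KPC630 this r was -0.352. It was -0.393 without KPC469 alone and -0.784 without KPC630 alone, so the relation rests on KPC469. The exporters Abca1 and Abcg1 gave r = -0.083, with an exact permutation p of 0.882 before and after adjustment, and rho = -0.429, with 0.419 before and 0.466 after. It was -0.116 without KPC469 and KPC850. The other 4 pairs were Scd1 with Scd2 (r = 0.773, rho = 0.771), Fads1 with Fads2 (r = 0.810, rho = 0.829), Srebf1 with Srebf2 (r = 0.330, rho = 0.086) and Acly with Acss2 (r = 0.820, rho = 0.771). Their exact permutation p for r was 0.0403, 0.0625, 0.489 and 0.0431 in that order, and 0.0861, 0.104, 0.597 and 0.0861 once adjusted. For rho it was 0.103, 0.0583, 0.919 and 0.103, and 0.206, 0.206, 0.919 and 0.206 once adjusted. Without the 2 lines farthest from the median of the first gene, r of these pairs was 0.727, 0.983, 0.043 and 0.680. With 6 lines and 1 library each these tests can show only very close relations.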

How the data were processed

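Expected counts of 56953 Ensembl genes in 6 libraries, as deposited by the authors, are estimates that RSEM makes by sharing reads among transcripts. Per the submitters' processing notes the tools were Trimmomatic 0.36, STAR 2.7.10b and RSEM 1.3.3 on the build GRCm39, and per the labels' protocols the libraries came from a stranded poly(A) kit. Whether counting used the strand is not given in the sources used here, so reads of genes that overlap on opposite strands cannot be told apart. Counts were rounded to whole numbers and scaled to CPM with TMM factors (0.986 to 1.01) from edgeR 4.0.16 in R 4.3.3. Where a line had fewer than 3 counts, ratios used a floor of 3 counts, 0.160 to 0.182 CPM, except the ratio of Abca1 to its line with 1 count, which is given with its counting interval.

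With 1 library and no replicate per line, no count model was fitted. The labels name no batch. Each line was set against the median of the other 5, and counts of members beside the 11323 genes that reached 5 CPM in some line. No library was a copy of another: chi-square per degree of freedom between any pair was 89.1 to 192.1. Ratio intervals are exact conditional binomial 95% intervals. Correlations and their permutation tests used scipy 1.17.1. The calculations were tested on simulated data.

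The members, gene lists and pairs were chosen with earlier results of these data known, so their pattern is no independent support for those results. All members are reported, with values in every line for those ranging 4-fold or more and for regulators and exporters, and of other lists up to 4 wide-ranging expressed genes. Outside that rule, Mbtps1, Insig2, Nr1h2, Nr1h3, Lpcat3, Hadha, Pdss2, G6pdx and Slc25a1 were named after their values were seen. Symbols, chromosomes and exon lengths came from GENCODE vM21, built on GRCm38, which named 52029 identifiers; promoters came from RefSeq on GRCm38.p6, and no coordinate was carried over between builds. Near-identical transcripts were searched with BLAST 2.17.0 at 90% identity over 400 bases or more. Alternatives were scaling by library totals and by DESeq2 1.42.0 size factors, unrounded counts, a prior count of 2, subtraction of chromosome medians, other backgrounds, other fold limits and each line left out.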

Additional observations from a re-analysis of the deposited data

Results flagged for a closer look

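One member had a line far from the others. KPC469 had 6.21 CPM of Acss2 while the 5 other lines had 14.9 to 23.1, and the gap from KPC469 to the next line, KPC630, was 0.667 of the whole range over the 6 lines on the log2 scale, above Dixon's 95% limit for 6 values. On the linear CPM scale, tried after seeing the data, the share for Acss2 was 0.516, under the limit, and the shares above it were those of Abca1 (0.913, KPC469 highest) and Abcg1 (0.791, KPC142 highest). Chance flags about 1 in 20 such sets of values, and 36 members were examined.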

How the results depend on the processing

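The counts of members ranging 4-fold, lowest in KPC469 and at least 2-fold lower in KPC469 were 19, 26 and 24 with library totals, with DESeq2 size factors, with unrounded counts and with a prior count, as reported. Of the alternatives to these counts, the ones that moved a count by over 1.5 times were few. Leaving out each line in turn gave 5 to 19 members with a 4-fold range, the 5 being without KPC469. A 2-fold range in place of 4-fold gave 31 members. A 4-fold limit in place of 2-fold gave 7 members lower in KPC469 and 1 higher. Members at least 2-fold higher in KPC469 numbered 1 with the background at 1 CPM, 1 at 10 CPM and 0 with filterByExpr, since those backgrounds leave out Mylip or both genes. With chromosome medians subtracted, 1 of the 10 correlations passed, Insig1 with Hmgcs1 (r = 0.894, adjusted exact permutation p = 0.0278 against 0.0861 as reported), and the cause was not tested. No result reversed. Other scalings moved the median of all genes in KPC469 by -0.012 and -0.015 (log2), and no member changed sign. No paired analysis was possible because each line has 1 library and the labels carry no replicate numbers. Depth limits Mylip, Abcg1 and the low lines of Abca1, where 1 count is 0.0532 to 0.0607 CPM.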

Other observations

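Of the 85 genes at least 2-fold lower in both KPC469 and KPC630, 7 were members. Named after their values were seen, the others include Cdh17, an intestinal cadherin, at 89.4 CPM in KPC469 and 233.1 in KPC630 against 378.1 to 723.3 in the other lines. Krt20, a keratin of gut epithelium, was 25.3 CPM in KPC469 and 202.7 in KPC630 against 238.2 to 621.1. In the other direction 152 genes (1.34%) were at least 2-fold higher in both lines, none of them a member. Mylip was also at least 2-fold higher in both (1.49 and 1.10 on the log2 scale). It lies near the floor and below the 5 CPM limit, so it is outside that count.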
